A study of Sus scrofa with 4 samples.

Results

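The genes described here are 10 components of insulin signalling and glucose uptake, INSR, IRS1, IRS2, PIK3R1, AKT1, AKT2, GRB10, FOXO1, SLC2A1 and SLC2A4, measured in porcine intramuscular fat cells. They were chosen by name, and every array probe that carried one of these gene names was used. Of the 10 genes, 7 were matched by 21 probes, out of 34853 gene names and 43603 probes on the array. IRS2, PIK3R1 and SLC2A1 are not analysed here.

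Insulin binds its receptor, INSR, which phosphorylates adaptor proteins such as IRS1. These recruit phosphoinositide 3-kinase, and the lipid it makes activates the kinases AKT1 and AKT2. In fat and muscle cells AKT then sends the glucose transporter SLC2A4, also called GLUT4, to the cell surface, and it phosphorylates the transcription factor FOXO1, which leaves the nucleus. Most of this regulation acts on proteins, by phosphorylation and movement within the cell, which an array of RNA does not measure.

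RNA came from PIP cells, a preadipocyte line derived from the longissimus thoracis muscle of a Duroc pig and used between passages 26 and 35, and from the adipocytes made of them, pMA. To obtain pMA, PIP cells were kept for 4 days in a medium with 50 ng/ml swine insulin, 0.25 µM dexamethasone, 2 mM octanoate and 200 µM oleate, so that pMA and both stimulated groups had received insulin and PIP cells had not received this addition. Stimulated pMA were given 100 µM serotonin (5-HT) or 2.5 µg/ml TNF-α for 12 h. Whether insulin stayed in the medium during these hours is not given in the sources used here. Each of the 4 conditions was 1 array, from 1 cell line, and all 4 arrays lay on 1 slide. The methods speak of RNA pooled within each group in a passage on another array type, so whether these 4 samples were pools is not settled. No comparison therefore has a replicate check, and no test was run. The serotonin and the TNF-α comparison share the array of unstimulated pMA.

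Signals were divided by the 75th percentile of their array, which was 515 in PIP, 479 in pMA, 566 after serotonin and 559 after TNF-α, and are given on a log2 scale, where 0 is that percentile. Between 56.5% and 66.0% of probes were well above background. Repeated spots of a probe on 1 array had an SD of 0.11 to 0.18 (log2, root mean square over 24 to 30 probes), which corresponds to 0.23 for a ratio of arrays and covers spot noise only. Among 10 adipocyte markers 9 had probes. Between pMA and PIP, the lipid droplet protein PLIN2 had a log2 ratio of 3.14, and the 2 probes of CIDEC gave 0.75 and 3.88. FABP4 had at least 3.08 (4 probes from 2.64 to 3.58), PPARG 1.07, LPL 0.38 and LEP 0.31. Of 7 markers with a ratio, 6 were higher in pMA and 1 lower, with a median of 1.07. PLIN1 was not well above background on any array and ADIPOQ only in PIP. The serotonin ratio was 2.41 for LPL, -2.77 for FABP4 (4 probes from -3.13 to -2.21) and -0.08 for PPARG. For serotonin the adipocyte markers did not move as one: 4 were higher and 2 lower, with a median of 0.21. For TNF-α all 7 with a ratio were higher, with a median of 0.9. Their summed scaled signal was 3.09 in PIP, 14.0 in pMA, 33.2 after serotonin, where PLIN2 and LPL made up most of it, and 19.7 after TNF-α. That of the preadipocyte and fibroblast markers, 5 of 7 with probes, ranged from 234 after serotonin to 471 in PIP, most of it COL1A2. That of the skeletal muscle markers, all 8 with probes, ranged from 177 after serotonin to 659 in pMA, most of it ACTA1. Its serotonin ratio was -1.94 (11 probes from -2.63 to -0.26). Whether the ACTA1 probes measure this actin alone was not tested. Of the 5 muscle markers with a serotonin ratio 4 were lower and 1 higher. MYOD1, MYF5 and MYH2 were not well above background on any array. The macrophage list, 3 of 6 with probes, summed to 1.61 to 3.1 and the endothelial list, all 5 with probes, to 0.483 to 1.59. TNFAIP3, an NF-κB target included as a check of the labels, stood 5.29 higher after TNF-α and 2.26 higher after serotonin than in pMA. The part of cell composition in the ratios below was not tested.

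Of the 21 probes, 15 were well above background on all 4 arrays, 3 on none and 3 on some. A ratio is given as a lower bound where only 1 of the arrays compared was well above background. It is not given where neither was, or where that 1 array did not exceed the limit set for the dim array. The signals of different probes are not set against each other.

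**Figure D1:**
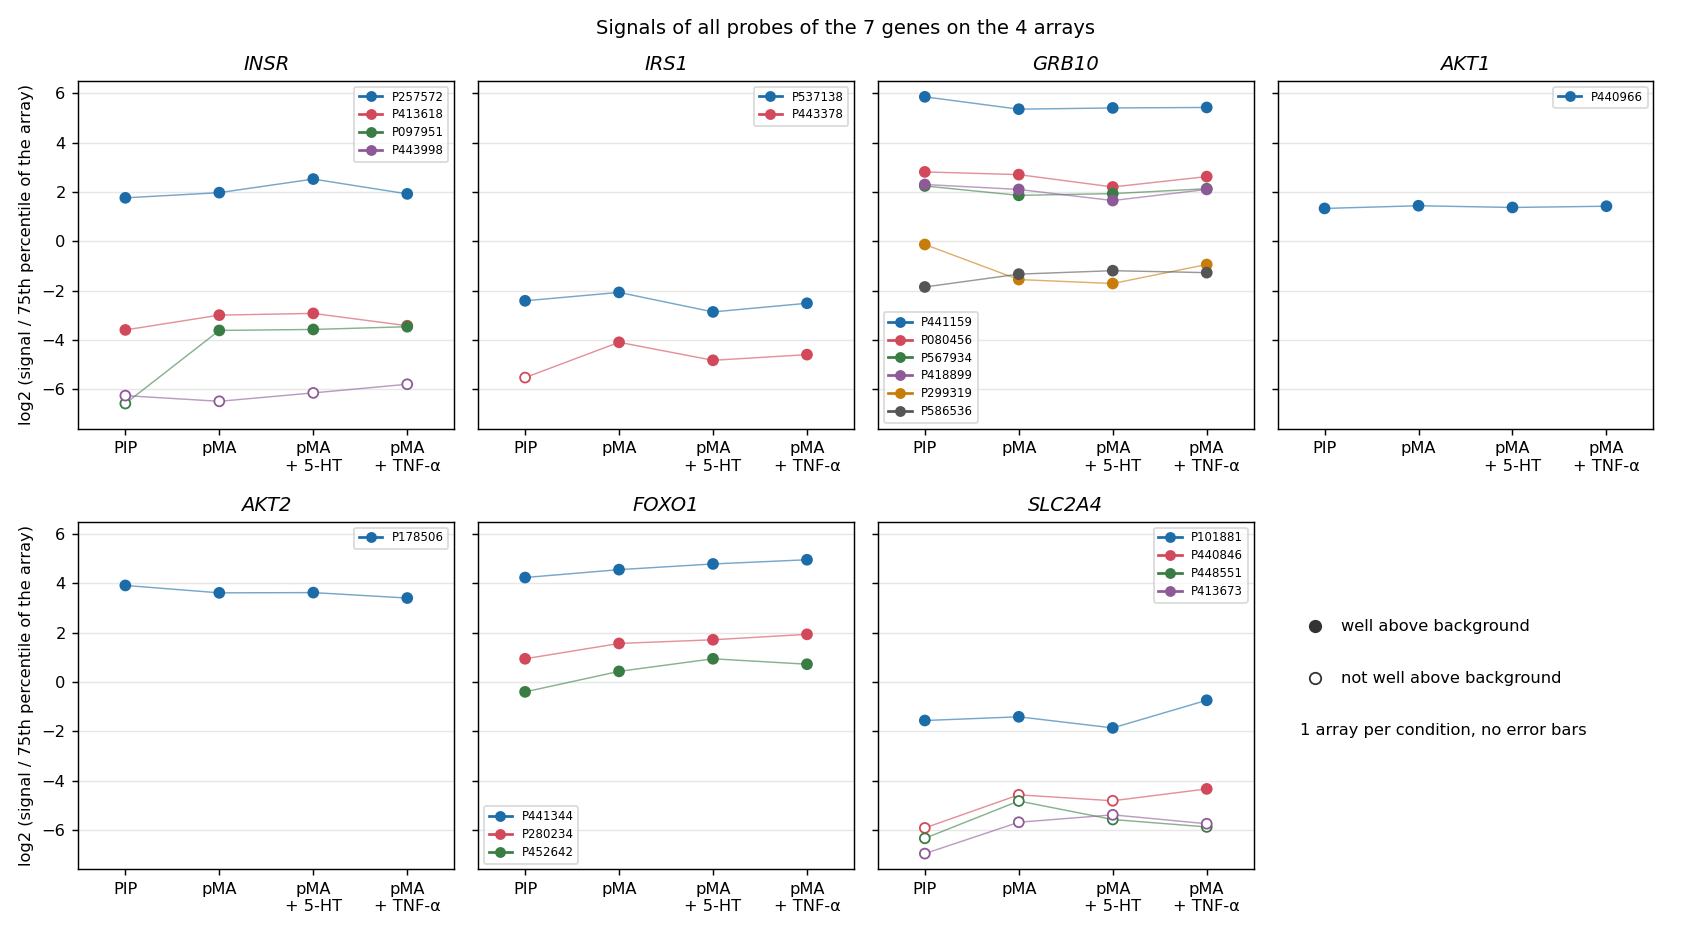
Scaled log2 signal of each of the 21 probes (vertical axis) on the 4 arrays (horizontal axis), 1 panel per gene and 1 colour per probe. Filled points were well above background and open points were not. The probes of GRB10, FOXO1, AKT1 and AKT2 are filled throughout, while SLC2A4 has 1 probe that is.

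INSR, the insulin receptor, had 4 probes. The brightest, A_72_P257572, stood at 1.76 in PIP, 1.97 in pMA, 2.52 after serotonin and 1.92 after TNF-α. The array of serotonin-stimulated pMA gave the highest of these signals, 0.54 or 1.46-fold above pMA, and the other 3 lay within 0.21 of each other. The probe A_72_P413618 is shown because it did not follow the brightest probe.

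INSR A_72_P413618: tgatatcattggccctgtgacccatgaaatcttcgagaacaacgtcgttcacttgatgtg

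This probe stood at -3.59 in PIP, -2.99 in pMA, -2.92 after serotonin and -3.42 after TNF-α, so its ratio was 0.07 for serotonin and -0.44 for TNF-α. The probe A_72_P097951 was not well above background in PIP and stood at -3.61, -3.57 and -3.46 in pMA, after serotonin and after TNF-α. Its signal in pMA was at least 2.88-fold that in PIP, while the brightest probe gave 1.16-fold and A_72_P413618 gave 1.52-fold. The fourth probe, A_72_P443998, was not well above background on any array. All 3 measurable probes were thus higher in pMA than in PIP, by different amounts. The serotonin difference of the brightest probe was not seen in the other 2, whose ratios were 0.07 and 0.04. Those 2 probes were dim. Their processed signals in pMA were 60.3 and 39.3, where the faintest probe well above background had 19.2 and the brightest INSR probe 1880. Scaling to the median turned the PIP to pMA ratio of the brightest probe to -0.14.

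IRS1, the adaptor that the receptor phosphorylates, had 2 probes. They are printed because they gave nearly the same ratios in both stimulations from different stretches of the same transcript.

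IRS1 A_72_P537138: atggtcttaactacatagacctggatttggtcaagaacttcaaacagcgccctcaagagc
IRS1 A_72_P443378: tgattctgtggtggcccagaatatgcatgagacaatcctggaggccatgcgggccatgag

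A_72_P537138 stood at -2.41 in PIP, -2.07 in pMA, -2.86 after serotonin and -2.51 after TNF-α. A_72_P443378 was not well above background in PIP and stood at -4.09 in pMA, -4.82 after serotonin and -4.59 after TNF-α. On both probes unstimulated pMA gave the highest signal and serotonin the lowest of the 3 pMA arrays. The serotonin ratios were -0.79 and -0.73, or 1.72-fold and 1.66-fold lower, and the TNF-α ratios were -0.44 and -0.50. Of all gene names measured for serotonin, 12.0% had a ratio farther from 0 than IRS1. For differentiation the first probe gave 0.33, and -0.02 when scaled to the median. The second gave at least 2.06-fold, or 1.04. Under the other scalings this bound lay between 0.54 and 1.42. The IRS1 signals were low: the second probe had a processed signal of 20.0 after serotonin, where the faintest probe well above background had 16.2. With normexp background correction the serotonin ratio of IRS1 was -0.54.

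GRB10, an adaptor that binds the insulin receptor and restrains its signalling, had 6 probes, all well above background on every array. The brightest, A_72_P441159, stood at 5.85 in PIP, 5.35 in pMA, 5.40 after serotonin and 5.42 after TNF-α. PIP had the highest of these, and pMA was 0.50 or 1.42-fold lower, a ratio that stayed below 0 under every scaling tried, between -0.85 and -0.12. Of the 6 probes 5 were lower in pMA and 1 was higher. With scaling to spike-ins 3 of the 5 no longer lay below 0, A_72_P080456 at 0.27, A_72_P418899 at 0.18 and A_72_P567934 at 0.00. The following 2 probes are printed as 1 of the lower probes and the higher one.

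GRB10 A_72_P567934: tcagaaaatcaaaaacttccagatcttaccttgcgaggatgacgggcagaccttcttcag
GRB10 A_72_P586536: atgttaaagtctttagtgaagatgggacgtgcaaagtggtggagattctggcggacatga

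A_72_P567934 stood at 2.24 in PIP, 1.86 in pMA, 1.93 after serotonin and 2.13 after TNF-α, and A_72_P586536 at -1.85, -1.33, -1.19 and -1.27 in the same order. Their ratios of pMA to PIP were -0.38 and 0.52. The probe A_72_P299319, described in the array design as a splice variant of GRB10, stood at -0.13 in PIP, -1.55 in pMA, -1.71 after serotonin and -0.94 after TNF-α. It was 2.67-fold lower in pMA than in PIP, the only measured ratio past 2-fold among the 21 probes, and its TNF-α ratio of 0.60 was the highest of the 6. The remaining pair, A_72_P080456 and A_72_P418899, was designed from 1 transcript model and gave -0.50 and -0.44 for serotonin, where the other 4 gave -0.16 to 0.14. For this gene the direction of the serotonin ratio therefore depended on the probe.

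AKT1 and AKT2, the kinases at the centre of the pathway, had 1 probe each. AKT1 stood at 1.33 in PIP, 1.44 in pMA, 1.37 after serotonin and 1.42 after TNF-α. These 4 signals lay within 0.11 of each other, less than the 0.23 that repeated spots give for a ratio. AKT2, which in fat cells is the form tied to glucose transport, stood at 3.91 in PIP, 3.61 in pMA, 3.62 after serotonin and 3.40 after TNF-α. It was highest in PIP, its pMA to PIP ratio was -0.29 (0.09 with scaling to spike-in controls), and its serotonin and TNF-α ratios were 0.01 and -0.21. Of all gene names with a serotonin ratio, 98.9% had one farther from 0 than AKT2.

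FOXO1, the transcription factor that AKT keeps out of the nucleus, had 3 probes, each well above background on every array. The first below is the brightest. The second is printed because the codons in capitals match the AKT phosphorylation consensus, arginine, any residue, arginine, any 2 residues and then serine or threonine, read in an open frame of the probe that was judged from knowledge of the protein. Among all probes on the array 0.897% hold such a match in an open frame.

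FOXO1 A_72_P441344: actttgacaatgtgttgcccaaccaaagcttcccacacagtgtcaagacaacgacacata
FOXO1 A_72_P280234: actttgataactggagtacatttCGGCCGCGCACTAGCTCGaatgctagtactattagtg

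A_72_P441344 stood at 4.23 in PIP, 4.55 in pMA, 4.78 after serotonin and 4.95 after TNF-α. A_72_P280234 stood at 0.94, 1.56, 1.71 and 1.93, and A_72_P452642 at -0.40, 0.43, 0.94 and 0.72, in the same order. On all 3 probes PIP was lowest, pMA followed and both stimulated arrays were higher than pMA. The pMA to PIP ratios were 0.32, 0.62 and 0.82, the serotonin ratios 0.23, 0.16 and 0.52, and the TNF-α ratios 0.40, 0.37 and 0.29. The stimulation ratios kept their sign under all 3 other scalings, between 0.14 and 0.62 for serotonin and between 0.21 and 0.47 for TNF-α. With scaling to the median the differentiation ratio of the brightest probe was -0.03, and those of the other 2 were 0.27 and 0.47. FOXO1 was the only gene of the 7 with more than 1 measured probe whose probes all lay above 0 in each of the 3 comparisons, and none reached 2-fold.

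SLC2A4, the insulin-responsive glucose transporter, had 4 probes, of which only A_72_P101881 was well above background on all arrays. This probe, on which the values of the gene rest, stood at -1.56 in PIP, -1.41 in pMA, -1.86 after serotonin and -0.74 after TNF-α, with processed signals of 175, 180, 156 and 334. The TNF-α array was the highest, 0.67 or 1.59-fold above pMA, and the serotonin array the lowest, 0.45 below it. Of all gene names with a ratio, 9.1% had a TNF-α ratio farther from 0, and 30.6% a serotonin ratio farther from 0. A_72_P440846 was well above background only after TNF-α, at -4.33, at least 1.18-fold above pMA. A_72_P448551 and A_72_P413673 were not well above background on any array. The difference between pMA and PIP was 0.15, and -0.20 with scaling to the median.

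Taking each gene by its brightest probe, 5 of the 7 genes were higher and 2 lower in pMA than in PIP, with a median ratio of 0.15 and a range of -0.50 to 0.33. The median over all 18633 gene names with a ratio was 0.12. None of the 7 reached 2-fold, a size that 2515 gene names (13.5%) reached, and none reached 1.5-fold, which 34.0% did. By probes, 3 of 17 reached 2-fold, the GRB10 splice variant probe and, as lower bounds, 1 probe each of INSR and IRS1, beside 13.1% of all probes. For serotonin, 4 genes were higher and 3 lower than in pMA, with a median of 0.01, equal to that of all gene names, and a range of -0.79 to 0.54. None reached 2-fold, beside 6.82% of gene names, and 0 of 17 probes did, beside 6.92% of probes. IRS1 was the 1 gene past 1.5-fold, beside 21.0% of gene names. For TNF-α, 3 genes were higher and 4 lower, with a median of -0.02 and a range of -0.44 to 0.67, where all gene names had a median of 0.01. Again no gene and 0 of 18 probes reached 2-fold, beside 3.56% of gene names and 3.52% of probes. SLC2A4 was the 1 gene past 1.5-fold, beside 12.1% of gene names. With normexp background correction its ratio was 0.46, which is below 1.5-fold. With 7 genes and such shares in all gene names, these counts of 0 do not set the genes apart.

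**Figure D2:**
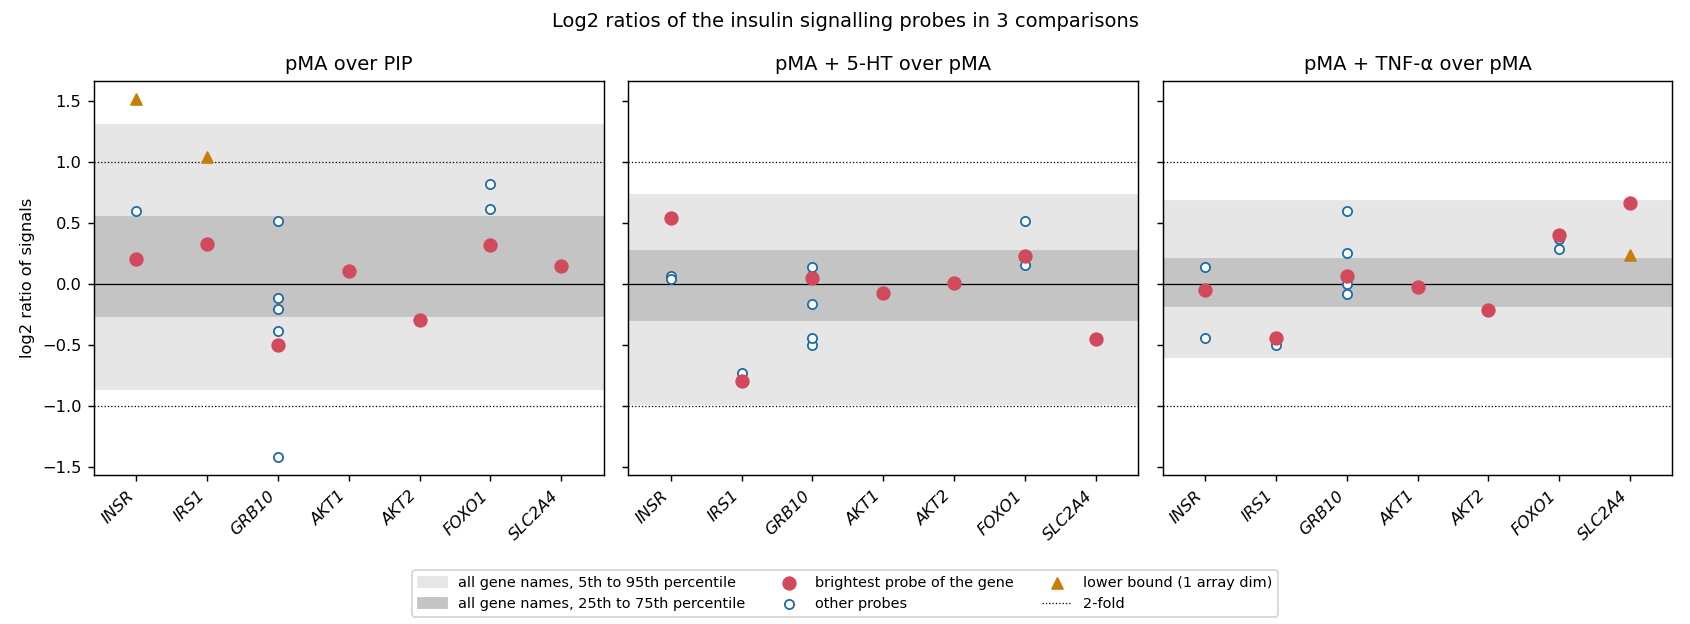
Log2 ratios of the probes (vertical axis) by gene (horizontal axis) in the 3 comparisons, with the brightest probe of a gene in red, other probes as open circles and lower bounds as triangles. Grey bands hold the middle of all gene names (25th to 75th and 5th to 95th percentile) and dotted lines mark 2-fold. No red point passes a dotted line, and IRS1 with serotonin at -0.79 is the farthest from 0.

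The other genes of the pathway were read from 6 lists with 100 genes in all. Of these, 54 had probes. At least 2-fold were 7 of 49 with a ratio for differentiation, 5 of 49 for serotonin and 3 of 50 for TNF-α, which is 14.3%, 10.2% and 6.00%, beside the 13.5%, 6.82% and 3.56% of all gene names. The medians were 0.05, -0.04 and 0.01. Signals given for these genes are processed signals before scaling, and ratios and folds are after it. In the list of receptors and adaptors, which holds IGF1R, SHC1 and GRB2, 0 of 7 genes reached 2-fold in any comparison.

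Among PI3K and AKT pathway genes PIK3R3, a regulatory subunit of phosphoinositide 3-kinase, was the only one of 9 past 2-fold for serotonin. Its signals were 1380 in PIP, 1540 in pMA, 794 after serotonin and 2080 after TNF-α, and after serotonin it was 2.30-fold lower than in pMA. None of 10 passed for differentiation and none of 9 for TNF-α.

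Among inhibitors of the pathway, 1 of 6 passed 2-fold for differentiation, 1 of 7 for serotonin and 0 of 7 for TNF-α. SPRY2, an inhibitor of receptor tyrosine kinase signalling, had signals of 996 in PIP, 7760 in pMA, 8470 after serotonin and 6600 after TNF-α. It was 8.39-fold higher in pMA than in PIP, and the stimulated arrays gave ratios to pMA of -0.12 and -0.46. SOCS3, a cytokine-induced protein that binds the insulin receptor, had signals of 1880, 2480, 9650 and 4300 in the same order. The serotonin array stood out, 3.30-fold above pMA, and its 2 probes gave 1.08 and 1.72 for serotonin but -0.28 and 0.57 for TNF-α. PTPN1, the phosphatase that acts on the insulin receptor, had ratios of 0.39, -0.15 and 0.01 for differentiation, serotonin and TNF-α.

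Among genes of GLUT4 traffic only CAV1, the coat protein of caveolae, passed 2-fold, with signals of 39700 in PIP, 17000 in pMA, 17600 after serotonin and 21200 after TNF-α. It was 2.17-fold lower in pMA than in PIP, and its 5 probes ranged from -1.55 to -1.12. TBC1D4, the AKT substrate that holds GLUT4 vesicles inside the cell, had ratios of -0.09, 0.08 and -0.11.

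Among glucose transporters and trapping enzymes, TXNIP, which lowers glucose uptake, had signals of 4290 in PIP, 31400 in pMA, 21400 after serotonin and 39000 after TNF-α. It was 7.87-fold higher in pMA, and all 9 of its probes lay between 2.72 and 3.16. SLC2A6, a transporter of the same family as GLUT4, had signals of 861, 666, 1060 and 2300 in the same order, 2.96-fold higher after TNF-α than in pMA. HK2, the hexokinase that traps glucose in muscle and fat, had signals of 94.1, 76.4, 86.6 and 211, 2.36-fold higher after TNF-α. These 2 genes, of 7 with a ratio in the list, were the ones past 2-fold for TNF-α, and 0 of 7 were for serotonin, where the list median was -0.43.

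Among FOXO factors and their known targets 4 of 12 passed 2-fold for differentiation, all higher in pMA, beside 9.94% of all gene names that were 2-fold higher. For serotonin 3 of 12 passed, all higher, beside 2.08%, and for TNF-α 1 of 13, which was lower, beside 1.34%. These shares count only the direction that the list itself showed, which makes them smaller. Counted in either direction, the shares of all gene names were 13.5% for differentiation, 6.82% for serotonin and 3.56% for TNF-α. The list was chosen with earlier results of these data known, so whether it stands apart from all gene names was not tested. PDK4, a kinase that shuts glucose carbon out of the citric acid cycle, was not well above background in PIP and had signals of 384 in pMA, 1710 after serotonin and 160 after TNF-α. It was at least 28.1-fold higher in pMA than in PIP, 3.77-fold higher after serotonin and 2.81-fold lower after TNF-α than in pMA. Its probes all kept these directions. For differentiation 8 probes gave ratios or lower bounds from 1.02 to 4.81, so the 28.1-fold is the largest of them. The range was 0.93 to 2.20 for serotonin over 9 probes and -1.49 to -0.58 for TNF-α over 8. KLF15, a transcription factor of fasting metabolism, had signals of 542, 1010, 3470 and 1840 in PIP, pMA, after serotonin and after TNF-α. CITED2, a transcriptional co-regulator, had 560, 1550, 4960 and 2540. Both were higher in pMA than in PIP, by 2.02-fold and 2.98-fold, and higher after serotonin than in pMA, by 2.89-fold and 2.71-fold. FOXO4 was 3.15-fold higher in pMA, with signals of 306, 895, 873 and 1010, and FOXO3 had a differentiation ratio of 0.79. PCK1 and IGFBP1, further targets of FOXO1, had differentiation ratios of 0.22 (3 probes from -0.33 to 0.84) and 0.05. The 3 genes of the list below 0 were CDKN1B, GADD45A and PNPLA2, at -0.64, -0.46 and -0.28, while 9 lay above 0. The list median was 0.50 for differentiation, -0.01 for serotonin and -0.15 for TNF-α. None of the 11 genes past 2-fold changed the sign of that ratio under the 3 other scalings, but the differentiation ratios of KLF15 and CAV1 came within 2-fold under at least 1 of them, at 0.66 and -0.74. With normexp background correction 6, 5 and 2 genes of the 6 lists passed 2-fold for differentiation, serotonin and TNF-α, against 7, 5 and 3. Of all gene names with a ratio, 824 of 18524, 578 of 18359 and 268 of 18966 did so with normexp.

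**Figure D3:**
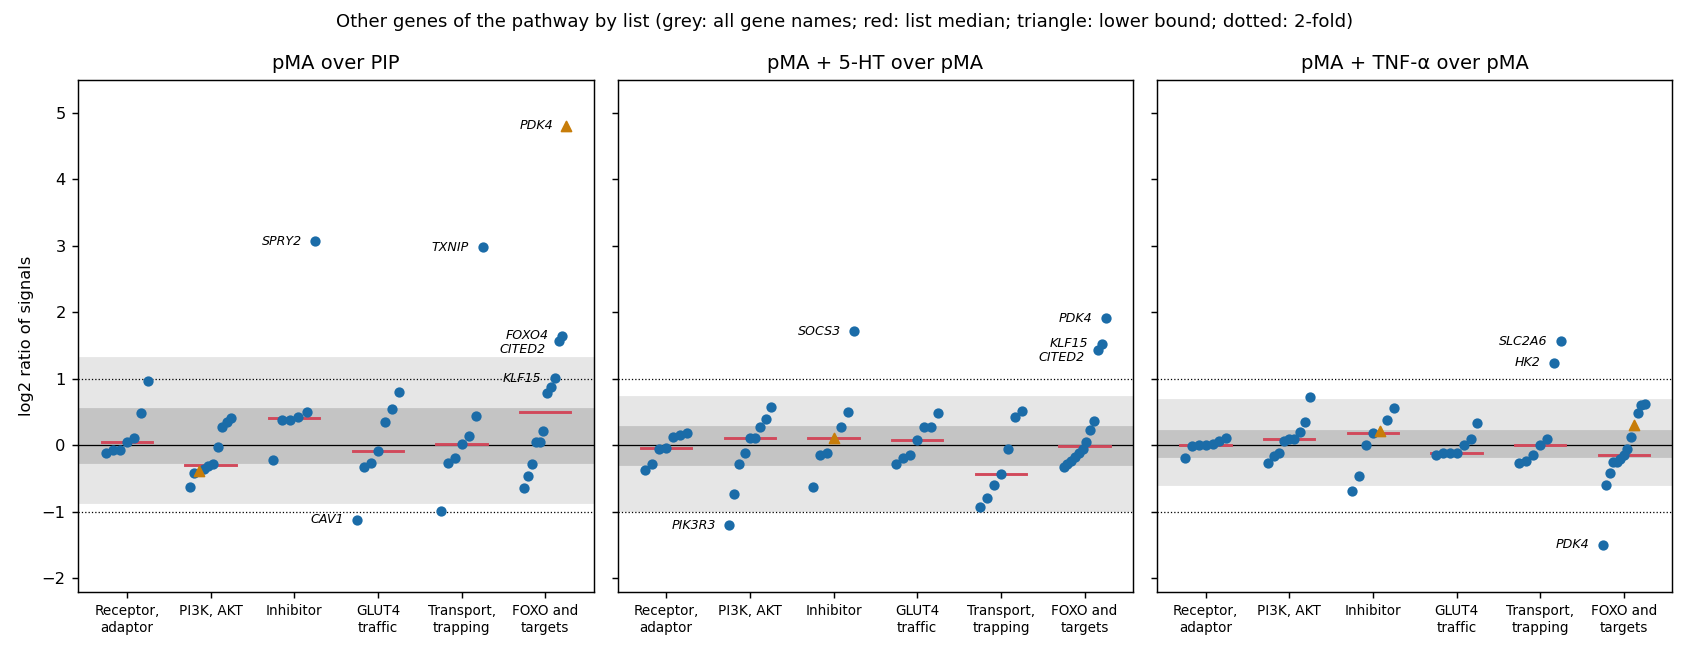
Log2 ratios of the other pathway genes (vertical axis) by list (horizontal axis) in the 3 comparisons, with list medians in red, lower bounds as triangles and the names of genes past 2-fold. Grey bands are the 25th to 75th and 5th to 95th percentiles of all gene names. Most points lie within the dotted 2-fold lines, and PDK4 is past them in all 3 comparisons.

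**Figure D4:**
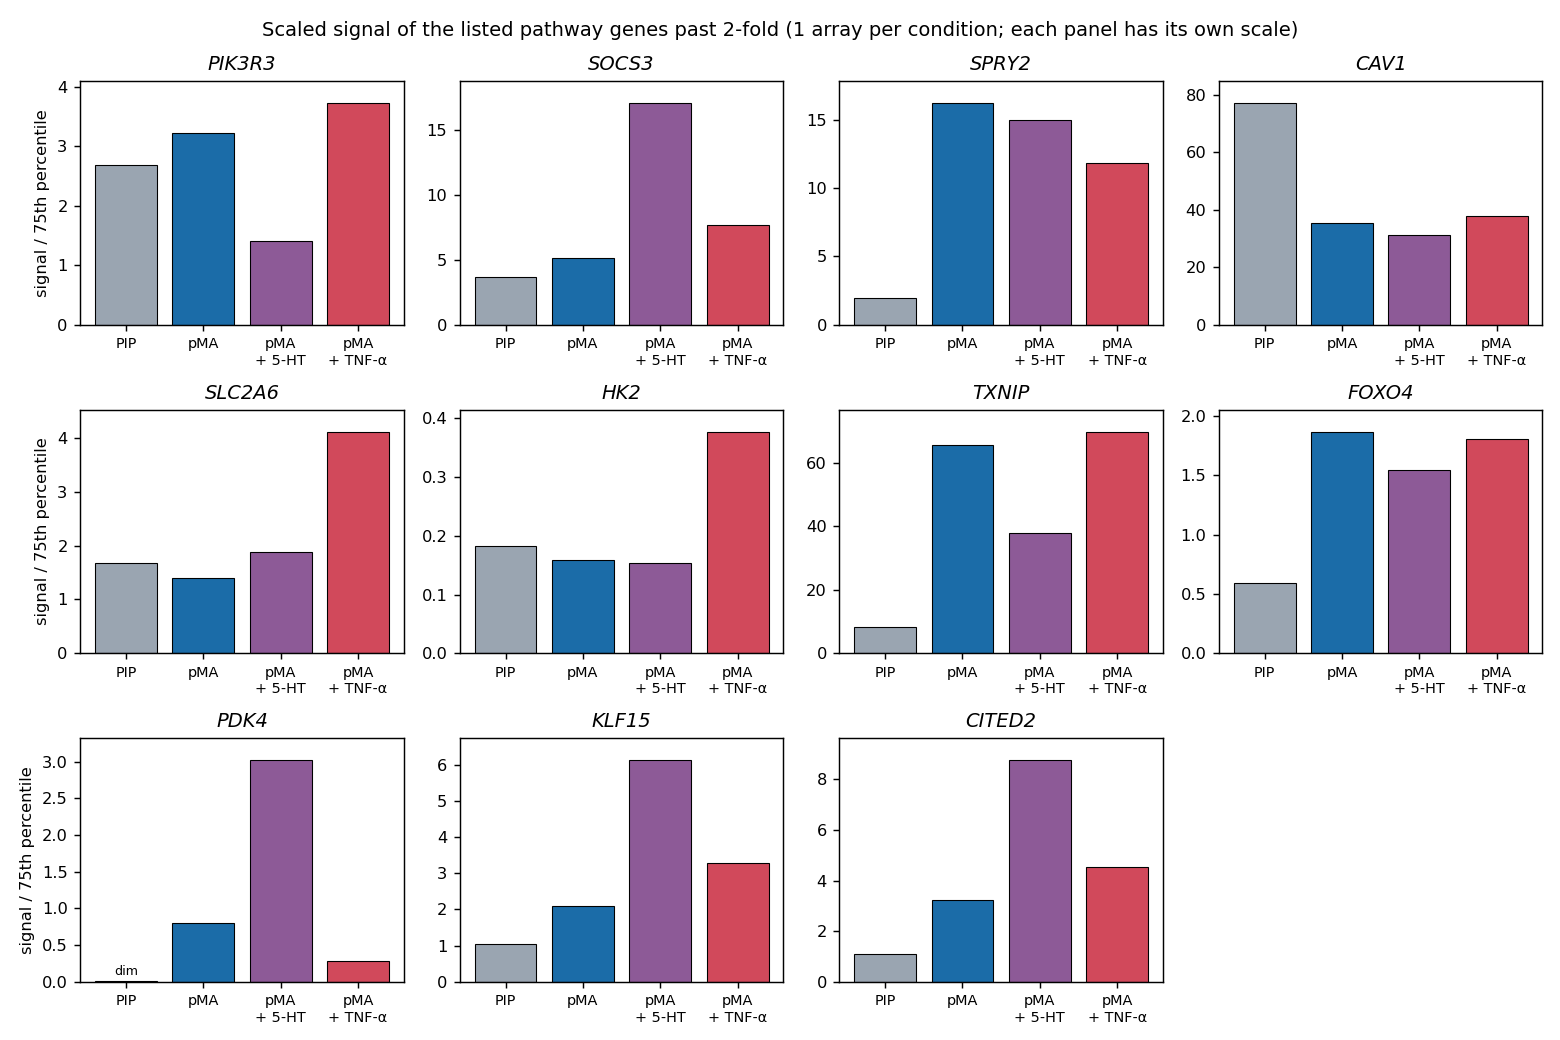
Signal divided by the 75th percentile of the array (vertical axis, linear and starting at 0, with a scale for each panel) of the 11 listed genes past 2-fold in any comparison, on the 4 arrays. SPRY2, TXNIP and FOXO4 are high on all 3 pMA arrays, SOCS3, PDK4, KLF15 and CITED2 are highest after serotonin, and SLC2A6 and HK2 are highest after TNF-α.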

How the data were processed

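Per the labels, RNA of 4 conditions was hybridised to 1 porcine 4x44K array each, in 1 colour (Cy3), and per the file headers the authors read the slide with Agilent Feature Extraction 10.7.3.1. The deposited intensity values used were processed signals, background-subtracted and detrended within an array but not scaled between arrays. The methods state pooling of RNA within groups in a passage on a mouse array, and describe a two-colour array too, neither of which the file headers show. No transcript table placed the printed probes in a gene. The authors' deposited value table holds the same signal divided by 1 constant per array.

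Control spots and spots flagged as outliers were left out, spots of a probe were averaged, and log2 signals were scaled to each array's 75th percentile (Python 3.11.15, pandas 2.3.3). The probe that was brightest on average stood for its gene. A dim value was set to the array's faintest probe well above background, or kept where it was higher, which gave a lower bound. No bound was given where the signal of the other array did not exceed that value. The cutoff was 2-fold, with no test, since each condition had 1 array. The ratio step was tested on simulated data with changes in bright probes only. That test does not cover lower bounds or changes in dim probes. Normexp (offset 50) and quantile normalization used limma 3.58.1 in R 4.3.3. The text names all 10 members with every probe, every listed pathway gene past 2-fold, and marker genes. PTPN1, TBC1D4, FOXO3, PCK1, IGFBP1, CDKN1B, GADD45A and PNPLA2 were added after their values were seen. The members and lists were chosen with earlier results of these data known. Some items are not reported here.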

Additional observations from a re-analysis of the deposited data

How the results depend on the processing

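With 1 array per condition every difference is without a replicate check. No paired analysis was possible because each group holds 1 sample. Over 9 other settings (scaling to the median, to bright spike-ins or by quantiles, normexp, no dim filter, well above background on all 4 arrays, median over probes, matching by accession, and the deposited value table) the number of the 7 genes past 2-fold remained 0 in each comparison. At a cutoff of 1.5-fold, with the main processing, it was 1 for serotonin and 1 for TNF-α. The differentiation median of 0.15 moved to -0.20 with scaling to the median and to 0.52 with scaling to spike-ins. The median of all gene names moved from 0.12 to -0.22 and 0.52. By the brightest probe of each gene, only GRB10 kept its sign under each scaling. Not all other GRB10 probes did so, while the other probes of INSR, IRS1 and FOXO1 with a ratio did. Relative to all gene names the 7 genes lay 0.02 above with the main scaling, and 0.02, 0.14 and 0.00 above with the median, quantile and spike-in scaling. The serotonin median ranged from -0.06 to 0.11 and the TNF-α median from -0.11 to 0.05. As the median over its probes, INSR had a serotonin ratio of 0.07 and FOXO1 a differentiation ratio of 0.62. In settings added after the data were seen, the member probes past 2-fold were also counted. For differentiation there were 2 with scaling to the median and 2 by quantiles, against 3 in the main setting. There was 1 with normexp or when well above background on all 4 arrays, and there were 5 with spike-ins and 6 with no filter. For TNF-α there was 1 with no filter. Matching by accession added 0 probes. Signal over background limited SLC2A4, IRS1 and 2 of the INSR probes.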

Other observations

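PIK3R5, a regulatory subunit of phosphoinositide 3-kinase gamma that was on none of the lists and was chosen after its values were seen, had the brightest probe at 173 in PIP, 209 in pMA, 592 after serotonin and 1290 after TNF-α. Its ratio to pMA was 1.26 for serotonin and 2.41 for TNF-α, and A_72_P232232 gave 1.35 and 2.40. The probe A_72_P442360 was not well above background in PIP or pMA.

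One probe without a gene symbol, described in the array design as similar to mouse insulin receptor substrate 2 (A_72_P382643), stood at 79.0 in PIP, 84.0 in pMA, 102 after serotonin and 86.5 after TNF-α, with ratios of 0.20, 0.04 and -0.18 for differentiation, serotonin and TNF-α. Another, described as similar to the bovine glucose transporter SLC2A5 (A_72_P437484), stood at 31.9, 224, 22.4 and 255 in the same order. Its ratio was 2.92 for differentiation, -3.56 for serotonin and -0.04 for TNF-α. Both were chosen after their values were seen, and the gene each one measures was not checked against a genome.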
